A study of Homo sapiens with 8 samples.

Results

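SiHa-only genes with a single wide peak are genes whose transcripts gave exactly 1 peak, at least 360 bases wide, in an N4-acetylcytidine (ac4C) immunoprecipitation from SiHa cells, and no peak from SiHa cells in which NAT10 was knocked out. The members were chosen by measured values: the number of SiHa peaks of an Ensembl identifier, the absence of a knockout peak under it, and the summed width of the peak's blocks. They number 319 of 12924 SiHa peaks (2.47%) and 319 of 7291 SiHa genes (4.38%), or 6.0% of the 5320 SiHa genes without a knockout peak. Together they cover 163740 of the 3237785 bases in SiHa peaks (5.06%). SiHa is an HPV-positive cervical carcinoma line. The 8 libraries were input RNA and ac4C-antibody-enriched RNA of SiHa and of NAT10-knockout SiHa (KONAT10SiHa), with 2 biological replicates in each of the 4 groups. No treatment is named for either population, and the sources do not say whether the knockout is 1 clone or a pool. The labels name only cervical cancer cells as their source.

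The values are 1 deposited peak list for each population. A peak has a strand, a gene identifier, 1 or more blocks (stretches of the transcript, so that a gap between blocks can be an intron) and the authors' p-value, printed below as p, which describes the peak within its own list. The second list, whose name adds a K to SiHa, was read as that of the knockout cells, a reading no label spells out. It held 4556 peaks in 3725 genes. Neither list gives counts or a value for a replicate, so depth is unknown and no value below has a replicate check or a test between populations. Intervals in brackets are 95% exact binomial intervals, or order-statistic intervals for medians, and cover counting of peaks alone. In bulk RNA of this kind, fewer transcripts and less ac4C per transcript cannot be told apart, because a peak list holds no expression level. Among cell type markers, 5 of 12 epithelial ones had a SiHa peak (KRT5, KRT8, KRT13, KRT19 and EPCAM), and so did 4 of 7 of other cells (VIM, ALB, HBA1 and HBB). A peak gives no level, so these counts cannot check the cell type. EPCAM, an epithelial adhesion molecule, is itself a member, with 360 bases in 3 blocks and a p of 3.6e-07.

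NAT10 is the enzyme that acetylates cytidine in RNA. It makes ac4C in 18S ribosomal RNA and, with adaptor proteins, in transfer RNAs, and ac4C sites in messenger RNA have been linked to translation and RNA stability. Antibody capture followed by sequencing finds the stretch of RNA around a modified base rather than the base itself, so the width of a peak depends on fragment length and on the number of nearby captured fragments as well as on the modification.

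Sequence could be read for the start of a gene, where the RefSeq promoter table (GRCh38.p14) gives 250 bases before to 50 bases after the annotated start, and for microRNAs. The table has 35116 such windows. The peaks of 6 of 319 members (1.88%, 0.693 to 4.05%) reached such a window on their own strand, beside 132 of 3068 narrower single peaks of SiHa-only genes (4.30%) and 6 of 162 single wide peaks of genes that also had a knockout peak (3.70%). The windows of 3 of them, in DDX24, RPL36AL and TM4SF4, are printed 5′ to 3′ on the gene's strand with the bases inside the peak in capitals, to show what a wide peak covers at a transcript start. The DDX24 window lies at chr14:94081153-94081452 on the minus strand, that of RPL36AL at chr14:49620577-49620876 on the minus strand, and that of TM4SF4 at chr3:149474447-149474746 on the plus strand.
DDX24: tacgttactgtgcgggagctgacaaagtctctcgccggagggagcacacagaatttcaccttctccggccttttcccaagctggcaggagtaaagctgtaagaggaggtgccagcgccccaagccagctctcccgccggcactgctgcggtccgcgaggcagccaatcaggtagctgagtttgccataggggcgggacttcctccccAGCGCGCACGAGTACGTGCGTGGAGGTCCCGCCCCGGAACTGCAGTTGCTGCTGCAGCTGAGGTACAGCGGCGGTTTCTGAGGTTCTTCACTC
RPL36AL: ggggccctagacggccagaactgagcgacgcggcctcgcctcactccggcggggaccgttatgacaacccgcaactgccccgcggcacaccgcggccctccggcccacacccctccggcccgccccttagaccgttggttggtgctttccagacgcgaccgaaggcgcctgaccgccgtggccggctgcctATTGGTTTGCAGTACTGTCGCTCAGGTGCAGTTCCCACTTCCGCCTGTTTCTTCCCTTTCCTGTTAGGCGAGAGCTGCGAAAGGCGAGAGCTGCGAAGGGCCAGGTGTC
TM4SF4: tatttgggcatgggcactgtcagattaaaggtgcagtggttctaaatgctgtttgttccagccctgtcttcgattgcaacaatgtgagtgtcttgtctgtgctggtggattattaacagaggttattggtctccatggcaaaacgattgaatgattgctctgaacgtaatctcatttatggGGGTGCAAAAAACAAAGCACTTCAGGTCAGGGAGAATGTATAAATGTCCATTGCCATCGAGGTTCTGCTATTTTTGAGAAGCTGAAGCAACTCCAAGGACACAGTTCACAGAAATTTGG

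In DDX24, which encodes a DEAD-box RNA helicase, 93 of the 300 bases lay in the peak, with a GC content of 63.4%. The peak had 601 bases in 2 blocks and a p of 0. In RPL36AL, a ribosomal protein L36a-like gene, 109 bases lay in a peak of 418 bases with a p of 0, and their GC content was 56.9%. In TM4SF4, a gene for a tetraspanin-like membrane protein, 119 bases lay in a peak of 387 bases with a p of 4e-25, and their GC content was 42.9%. These values cover only the bases inside the peak. Over the whole window the GC content was 62% for DDX24, 67% for RPL36AL and 42.7% for TM4SF4, beside a median of 58.7% over all windows. The peaks at RPL36AL and TM4SF4 carry the identifiers ENSG00000165502 and ENSG00000169903, which received no name because less than 90% of their bases fell in a RefSeq span. The other 3 windows reached belong to CYP2R1 (41 bases covered), CMTM1 (96 bases) and FAM187A (121 bases). A CCN repeat has been described at ac4C sites, so each window was searched for CCNCCNCCN, where N is any base and matches may overlap, on both strands. None of the 6 windows held it on the gene's strand, and only that of CMTM1 held it on the other, while 32.2% of 35097 windows of full length held it on the gene's strand and 52.7% on either strand. A missing match says only that these letters are not in the window.

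MicroRNA genes lay wholly or partly inside the peaks of 3 members, each on the strand opposite to the peak. The mature sequences are printed with the seed (bases 2 to 8) in capitals, and no seed is shared among them.
hsa-miR-7106-5p: uGGGAGGAggggaucuuggg
hsa-miR-7106-3p: aGCUCCCUgaaucccugucccag
hsa-miR-1184: cCUGCAGCgacuugauggcuucc

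The hairpin of miR-7106 lay with all 65 bases in the peak of CFAP73, a cilia and flagella associated gene, which had 417 bases and a p of 1e-146. Of these, 261 bases were shared with a peak of DDX54 on the opposite strand (780 bases), whose p was also 1e-146. Signal from CFAP73 and DDX54 thus cannot be told apart there. The hairpin of miR-1184 lay with 77 of 99 bases in the peak of F8A1 (532 bases, p of 1.9e-07) and with all 99 in that of F8A3 (388 bases, p of 0.00036). F8A1 and F8A3 are near-identical copies within the factor VIII region of chromosome X, so reads could be split between them and both peaks are uncertain. No microRNA gene lies on the peak's own strand in these 3 cases, so the peaks are no measurement of these microRNAs.

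The members' widths ran from 360 to 1673 bases, with a median of 450 and quartiles of 390 and 565. Of the 319, 70 had 360 to 389 bases, of which 36 had exactly 360. At the other end, 169 had 450 bases or more, 60 had 600 or more and 9 had 1000 or more. Of the 319 widths, 259 lay within 2 bases of a multiple of 30, so width is recorded in steps of about 30 bases. Just inside the threshold were SGK2 (361 bases) and EMC1 (361 bases), both with a p of 0, PLD5 (360 bases, 1e-215) and GOLGA5 (360 bases, 1e-161). Just outside it, at 359 bases, were ATP6V1C2 (1e-189), GLT8D1 (6.3e-43), NAT10 itself (5e-37) and RAB9A (4e-36). The gene that was knocked out thus missed membership by 1 base. In all, 30 SiHa-only genes had a single peak of 350 to 359 bases and 89 had one of 330 to 359 bases. The set therefore has no natural edge at 360 bases.

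**Figure D1:**
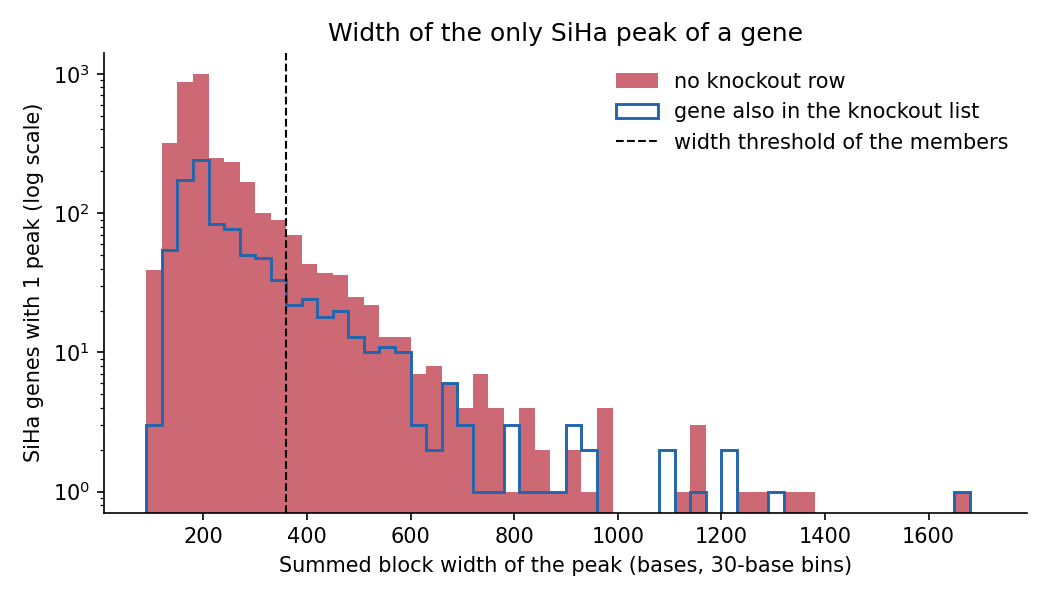
Width of the only SiHa peak of a gene, as the sum of its blocks in bases (x axis, bins of 30 bases), against the number of genes (y axis, log scale). Filled bars are genes without a knockout peak and the blue outline genes with one; the dashed line is the threshold of 360 bases, right of which lie the 319 members, and the counts fall without a break across it.

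Absence from the knockout list is part of the rule, and it is the common state of a SiHa gene: 5320 of 7291 (73.0%) had no knockout row. Among the 481 genes with a single peak of 360 bases or more the share was 66.3%, and among the 3831 with a single narrower peak it was 80.1%. By width, it fell from 84.3% (82.3 to 86.1%) of 1460 genes with a peak under 180 bases to 73.1% (68.9 to 77.0%) of 487 at 270 to 359 bases. It was 70.1% (63.5 to 76.1%) of 214 genes at 360 to 449 bases, 63.0% (55.3 to 70.2%) of 173 at 450 to 599 bases and 63.8% (53.3 to 73.5%) of 94 at 600 bases or more. The intervals of the 3 wide classes overlap, as do those of 270 to 359 and 360 to 449 bases. The share was thus lower in each wide class than among peaks under 180 bases, with intervals that do not overlap and no replicate check.

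**Figure D2:**
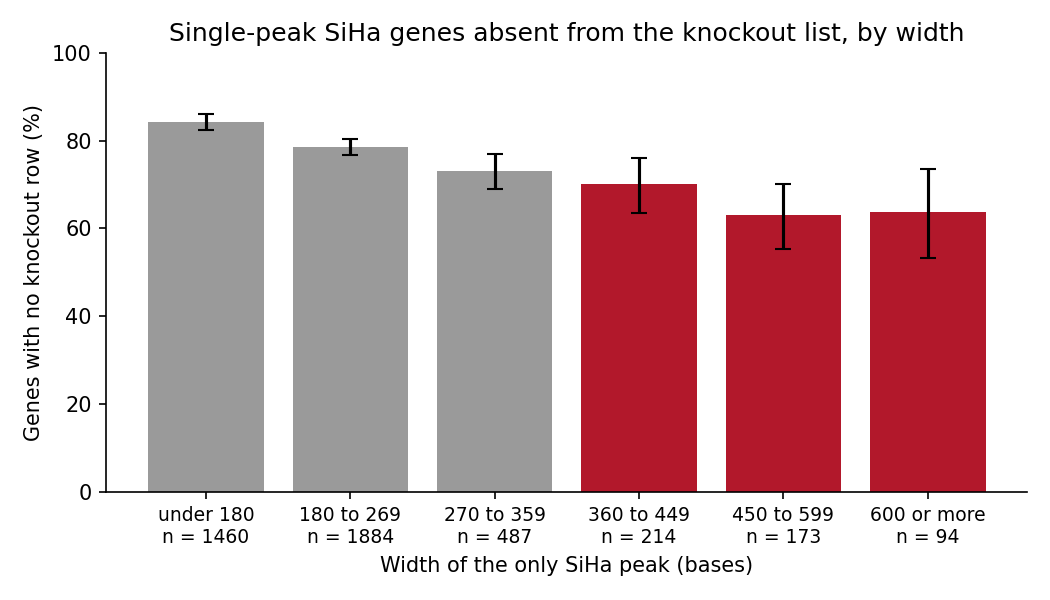
Share of SiHa genes with 1 peak that had no knockout row (y axis, percent) by the width of that peak (x axis, bases; n is the number of genes). Red bars hold the members, grey bars the narrower peaks, and error bars are 95% exact binomial intervals; the share lies between 84.3% in the narrowest class and 63.0% at 450 to 599 bases.

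The peaks of the members were also strong by the authors' p, which comes from the same peak call as the width and is given as a description. The median of −log10 p was 35.9, with quartiles of 15.5 and 102. A p of 0 was listed for 38 members (11.9%), and 280 (87.8%) had a −log10 p above 8. The largest p was 0.0016, and 4 members exceeded 0.0001. For the 3068 narrower single peaks of SiHa-only genes the median was 4.08, with 9 peaks at 0 and 31.4% above 8. For the 162 single wide peaks of genes with a knockout row it was 56.7, with 27 (16.7%) at 0 and 93.2% above 8. Width and −log10 p rose together: Spearman's rho was 0.35 over the 319 members and 0.69 over all single peaks of SiHa-only genes. These points all come from the same SiHa libraries. The median of −log10 p was 23.9 for members of 360 to 449 bases, 34.8 for 450 to 599 bases and 136 for 600 bases or more.

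**Figure D3:**
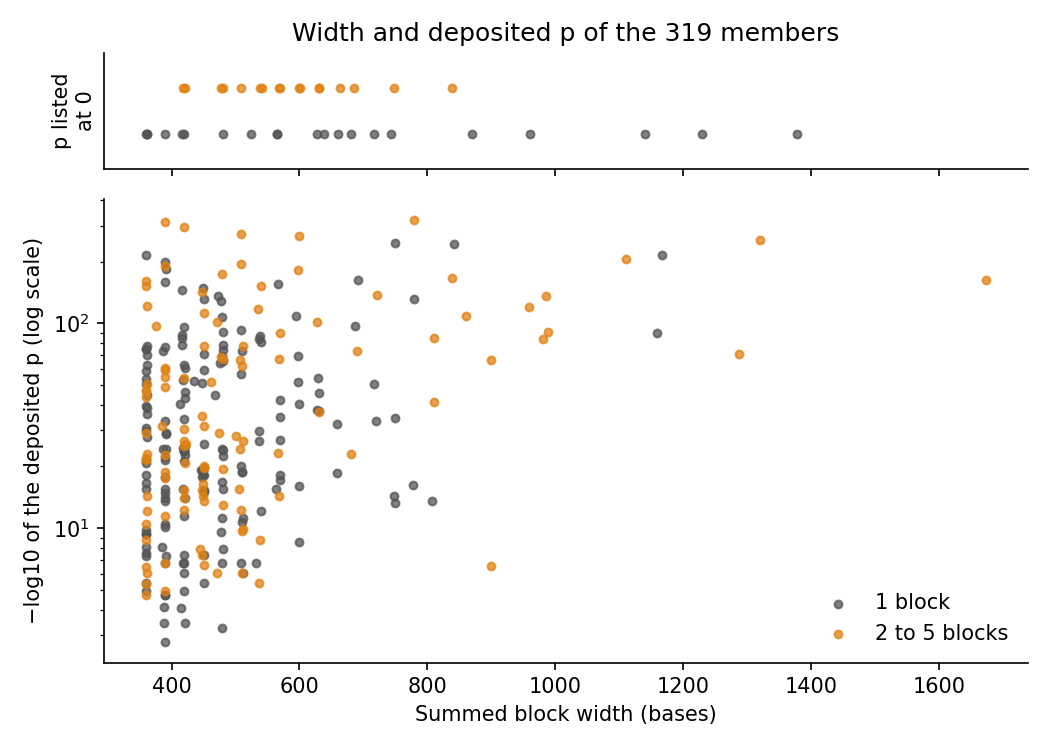
Width of the 319 members in bases (x axis) against −log10 of the deposited p (y axis, log scale), with peaks whose p is listed at 0 in the strip above, where height has no meaning beyond separating the colours. Grey points are peaks of 1 block and orange points peaks of 2 to 5 blocks; strong and weak peaks both occur near 360 bases, while the peaks of 1000 bases or more all lie above the median of 35.9.

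The 12 widest members with a name differ in function. CXXC5, a CXXC zinc finger protein that restrains Wnt signalling, had the widest peak, with 1673 bases in 2 blocks, a p of 1e-163 and its edge 418 bases from the gene's end. TACC2, a centrosome and microtubule protein, followed among nuclear genes with 1320 bases in 4 blocks and a p of 1e-255. PARD6B, a subunit of the cell polarity complex, had 1287 bases in 3 blocks (1.6e-71), beginning 143 bases from the gene's start. ERCC1, a subunit of the nuclease of nucleotide excision repair, had 1230 bases in 1 block and a p of 0. The noncoding RNA LINC00673 had 1167 bases (1e-215). DUSP5, a phosphatase that inactivates ERK, had 1159 bases (7.9e-91) ending 316 bases from the gene's end.

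NR3C1, the glucocorticoid receptor, differed from these in place: its peak of 1110 bases (1e-205) lay at 0.22 of the gene's span, 121885 bases from the annotated end. SULF2, an extracellular sulfatase of heparan sulfate, had 989 bases (7.9e-92) ending 195 bases from the gene's end. ERICH5 had 985 bases (1e-136), and MED7, a subunit of the Mediator complex, had 981 bases (1.3e-84). The remaining places among the 12 widest belong to the mitochondrial genes ND4 and CYTB. Of the 12, 5 had a single block and 7 had more, so a wide peak was not only a long uninterrupted stretch.

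Of the 38 members with a p of 0, the widest nuclear ones with a name after ERCC1 were CEBPZ, a factor of ribosome maturation, with 960 bases, and CD59, an inhibitor of complement, with 839 bases. SLC39A14, a zinc and iron transporter, had 748 bases, KRCC1 had 743, NSRP1, a splicing regulator, had 717 and PDIA4, a protein disulfide isomerase, had 686. Since these p are all listed at 0, they have no order among themselves.

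Mitochondrially encoded genes contributed 6 members, all with a p of 0. They encode subunits of the respiratory chain and of ATP synthase. ND4 had a peak of 1378 bases, CYTB of 1141, ATP6 of 681, COX3 of 639, COX2 of 565 and ND6 of 525. The peaks of ND4, CYTB, ATP6 and ND6 covered the whole annotated gene. Those of COX3 and COX2 covered 81.5% and 82.6% of it, starting at its first base. ND6 is the only one of the 6 on the other strand. Mitochondrial transcripts are cut from long precursors, and the ATP6 peak shares bases with 2 peaks of other identifiers on its strand and that of COX3 with 1, so their peaks are not independent. The knockout peak nearest to a member on its own strand lay here, 1178 bases from the COX2 peak.

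Position was described for the 266 members that received a name. Relative position runs from 0 at the start to 1 at the end of the RefSeq gene span, introns included. The median was 0.89 (0.853 to 0.902), with quartiles of 0.70 and 0.95. The midpoint lay in the last 0.1 of the span in 121 members (45.5%, 39.4 to 51.7%) and in the first 0.1 in 8 (3.01%, 1.31 to 5.84%). The 2372 named narrower single peaks of SiHa-only genes had a median of 0.81 (0.798 to 0.836), with 38.9% (36.9 to 40.9%) in the last 0.1 and 9.11% (7.98 to 10.3%) in the first. The 142 named wide single peaks of genes with a knockout row had a median of 0.90 (0.859 to 0.926). The interval of the members' median lies above that of the narrower peaks and overlaps that of the other wide peaks. A long peak near the end of a short gene is pulled towards the middle, so distance was counted too.

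Of the 266, 60 (22.6%, 17.7 to 28.1%) ended within 500 bases of the gene's annotated end, against 15.3% (13.9 to 16.8%) of narrower single peaks and 16.9% (11.1 to 24.1%) of wide single peaks with a knockout row. The 60 include all 6 mitochondrial members, whose peaks cover most or all of their genes. Without them the share was 20.8% (16.0 to 26.2%, n = 260), an interval that overlaps those of both other classes. The median distance to the end was 1805 bases, and 2881.5 bases for the narrower peaks. The median gene span was 26217.5 bases for members and 27817 bases for narrower peaks. At 14 members the peak covered 20% or more of the span. Beside the 6 mitochondrial genes these were small genes: TMEM203 (47.8%), F8A1 (31.2%), CITED4 (27.5%), RRAGA (24.4%), F8A3 (22.7%), THAP11 (22.3%), FADD (21%) and NDN (20.3%). These were named after their values were seen. By biotype, 259 of the 266 (97.4%, 94.7 to 98.9%) were protein coding, beside 88.9% (87.5 to 90.1%) of the narrower peaks and 97.9% (94.0 to 99.6%) of wide single peaks with a knockout row. Biotype was known for named peaks alone, 266 of 319 members and 2372 of 3068 narrower peaks, so these shares leave the unnamed ones out.

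**Figure D4:**
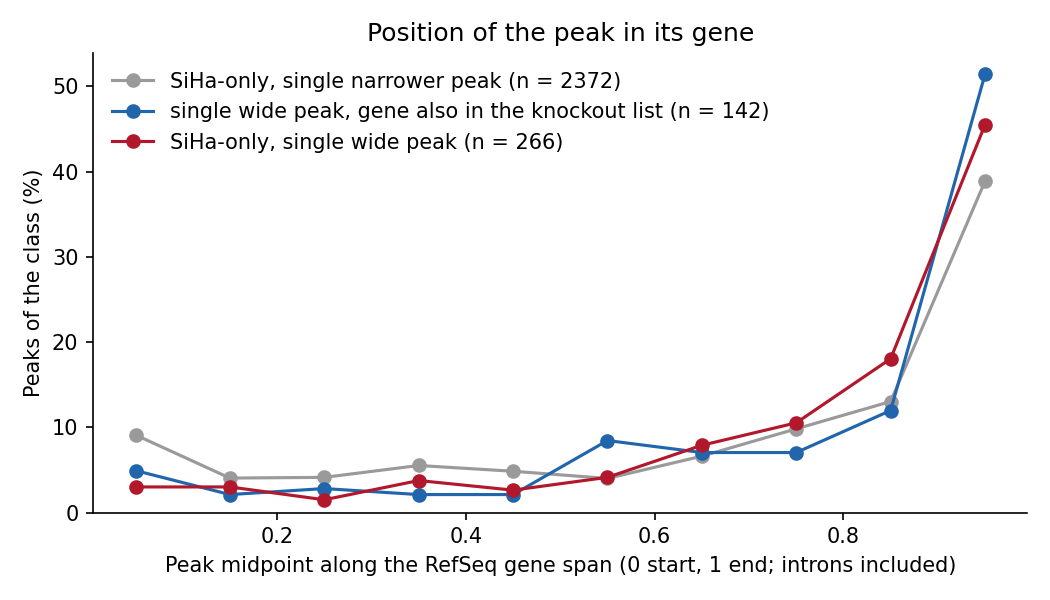
Position of the peak's midpoint along the RefSeq gene span (x axis, 0 start and 1 end, 10 bins) against the share of the class in each bin (y axis, percent). Red is the members, grey the narrower single peaks of SiHa-only genes and blue the single wide peaks of genes with a knockout row; the last bin holds 45.5% of the members and 38.9% of the narrower peaks, the first bin 3.01% and 9.11%.

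More than 1 block was recorded for 126 members (39.5%, 34.1 to 45.1%): 97 had 2 blocks, 23 had 3, 4 had 4 and 2 had 5. The share was 25.6% (24.1 to 27.2%) of narrower single peaks of SiHa-only genes and 32.7% (25.6 to 40.5%) of wide single peaks with a knockout row, whose interval overlaps that of the members. It was 34.7% at 360 to 449 bases, 42.2% at 450 to 599 bases and 46.7% at 600 bases or more. A longer stretch of transcript can cross more junctions, and that part in the shares was not tested. The gaps between blocks summed to a median of 2040 bases and ranged from 35 to 92970. The blocks of WBP4, a splicing protein, were the most numerous, with 5 blocks in 448 bases from 63 bases after the gene's start (5e-16). CRAT, carnitine acetyltransferase, also had 5, in 390 bases (1.9e-07). Beside TACC2, 4 blocks were recorded for SCO1, a copper chaperone of cytochrome oxidase (631 bases, 1.6e-37), and for the antisense RNA DNMBP-AS1 (510 bases, 8.9e-07). Peaks of several blocks had a median width of 476 bases and those of 1 block 449. Their median relative positions were 0.87 (0.83 to 0.90, n = 106) and 0.90 (0.85 to 0.93, n = 160), with overlapping intervals.

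Among the 266 named members, 14 began within 200 bases of the gene's start, the 6 mitochondrial genes among them. This count was not made for the other classes, so it is not a trait of the members. DDX24 was the only one whose peak reached before the annotated start, by 43 bases, while the peaks of ND4, CYTB, ATP6, ND6, COX3 and COX2 began at the first base.

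The members were then set beside 20 gene lists and 18 symbol families. Over all named SiHa genes, 266 of 5951 (4.47%) were members, and the count of each list reads against that share. A total of 70 named members fell in at least 1 list or family, 26 of the lists or families had a member and 12 had none. For no list or family did the exact interval of its share leave out the background share, so no list is described here as particular to the members.

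Among chaperones and co-chaperones, 4 of 35 genes with a SiHa peak were members (11.4%, 3.20 to 26.7%), and 12 others were SiHa-only genes with a narrower single peak. All 4 encode proteins of the endoplasmic reticulum. PDIA4, a disulfide isomerase, had 686 bases and HSPA5, the BiP chaperone, had 628, both with a p of 0. CALR, the lectin chaperone calreticulin, had 538 bases and a p of 0, with its edge 417 bases from the gene's end. PDIA6, another disulfide isomerase, had 390 bases (1e-191). Further members serve the same compartment and were picked after their values were seen, so they support nothing: SEC62 of the translocation channel (599 bases, p of 0), the cargo receptor SURF4 (541 bases, p of 0), the calcium-binding CALU (478 bases, p of 0), MESD, a chaperone of LRP receptors (509 bases, 1e-274), and EMC1 of the membrane insertase (361 bases, p of 0). XBP1, the transcription factor of the unfolded protein response, had a weaker peak of 361 bases in 2 blocks (9.8e-07).

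In signalling, 3 of 30 TGF-beta and BMP genes were members: BAMBI, a decoy receptor (565 bases, p of 0), the ligand GDF15 (537 bases, 7.9e-85) and the ligand BMP4 (450 bases, 4.2e-08). Of that list, 16 genes were SiHa-only with several peaks. Among 28 Notch and Wnt genes the members were the ligand WNT5B (510 bases, 1e-73) and AXIN1, a scaffold of the beta-catenin destruction complex (750 bases, 6.3e-14). The AXIN1 peak lay at 0.09 of the span. Among 39 growth factor, PI3K-mTOR and MAPK genes they were DUSP5, the feedback inhibitor SPRY1 (567 bases, 1e-156) and PIK3CA, the catalytic subunit of PI3-kinase (451 bases, 1e-132). DUSP5 and SPRY1 both restrain ERK signalling. The DUSP and PTP phosphatase family had 3 members among 22 (13.6%, 2.91 to 34.9%): DUSP5, PTPN12 (900 bases, 6.3e-67) and DUSP10, a phosphatase of stress kinases (477 bases, 1e-129). The p53, RB and apoptosis list gave GADD45A (390 bases, p of 0) and the death receptor FAS (360 bases, 4.1e-10) among 20, and KEAP1, the adaptor that targets NRF2 (360 bases, 1.6e-75), and UBE2Q1 (420 bases, 2.5e-31) came from 51 ubiquitin and proteasome genes. FADD, the adaptor of FAS, was in no list and was noticed after its value was seen, with 861 bases (1e-109).

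In RNA metabolism and translation, PUS1, a pseudouridine synthase (598 bases, 1.3e-69), and FTSJ3, an RNA methyltransferase (450 bases, 3.2e-32), were the members among 35 RNA modification genes, of which 16 had a narrower single peak without a knockout row. NOP2 (538 bases, 5e-87) was the member among 35 ribosome biogenesis genes. That list is not complete either: CEBPZ, described above as a factor of ribosome maturation, is a member outside it. EIF2B1, a subunit of the guanine exchange factor of eIF2 (481 bases, 3.2e-16), and the release factor GSPT1 (389 bases, 1.9e-05) came from 24 translation factors. Of 34 mitochondrial ribosomal protein genes 4 were members (11.8%, 3.30 to 27.5%), among them MRPL14 (390 bases, 1e-311), MRPL16 (389 bases, 1e-159) and MRPL34 (385 bases, 8.9e-09). The 37 cytosolic ribosomal proteins (0 to 9.49%) and the 30 splicing and hnRNP genes (0 to 11.6%) of the lists had none, and both intervals include 4.47%. These zeros hold for the listed and named genes: RPL36AL, NSRP1 and WBP4, described above, are in neither list. Other nuclear genes of mitochondria, picked after their values were seen, were the import factors TIMM9 (510 bases, 1.9e-10), TIMM23 (508 bases, 5e-13) and CHCHD4 (444 bases, 1.3e-08).

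Of 248 ZNF genes 9 were members (3.63%, 1.67 to 6.78%), led in width by ZNF724 (540 bases, 2.5e-81), ZNF570 (539 bases, 1.9e-09) and ZNF256 (537 bases, 4.1e-06). The symbol pattern also took in ZFP36L2, an RNA-binding protein that promotes mRNA decay (508 bases, 6.3e-94), which the stress factor list holds too. Of 115 solute carriers 7 were members (6.09%, 2.48 to 12.1%), the widest being SLC39A14, SLC35F6 (537 bases, 2e-30) and SLC10A3 (510 bases, 1.3e-19). SLC16A1, the lactate transporter MCT1 (508 bases, p of 0), was also the member among 12 glycolysis genes. Of 50 glycosyltransferases and sulfotransferases 4 were members, with CHST11 (808 bases, 3.2e-14), B3GALT9 (716 bases, 2e-51) and B3GNT2 (627 bases, 2.5e-38) the widest.

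Smaller counts came from the other families. TMEM203 (749 bases, 1e-247), TMEM60 (468 bases, 3.2e-45) and TMEM177 (417 bases, 3.2e-79) were the members among 68 TMEM genes. FAM86EP, FAM135A and FAM110B were those among 47 FAM genes, and KCTD21 (480 bases, 1.3e-08) and KCTD10 (361 bases, 5e-15) those among 29 BTB-domain adaptors. PPP2R2D, a regulatory subunit of phosphatase PP2A, had 630 bases and a p of 0. CACNA1D, a calcium channel subunit, had 570 bases (6.3e-19), FOXA2, a forkhead factor, 450 bases (7.9e-60), and TNFAIP8 420 bases (3.2e-63). All 570 bases of the CACNA1D peak also lay in a peak of CHDH on the opposite strand (660 bases, 5e-21). Long noncoding and antisense genes gave 5 of 204 (2.45%, 0.801 to 5.63%), with LINC00673, DNMBP-AS1 and MNX1-AS1 (507 bases, 4e-25) the widest, while 150 of the 204 had a narrower single peak without a knockout row. None of the listed genes was a member among chromatin regulators (53 genes with a SiHa peak), integrin, matrix, adhesion and cytoskeleton genes (61) or vesicle traffic (37). Cell cycle, replication and DNA repair (26), interferon response (23) and fatty acid and sterol synthesis (17) also had none. The same held for nuclear-encoded subunits of oxidative phosphorylation (6), the kinase families (43), GPR receptors (20) and protocadherins (2). The lists are not complete: the clathrin adaptor subunits AP1G1 (811 bases, 1.6e-85) and AP1M1 (569 bases, 7.9e-18), picked after their values were seen, are members outside the vesicle list. Picked likewise, ERCC1, RMI1 (720 bases, 6.3e-34) and POLE3 (570 bases, p of 0) are members outside the replication and repair list. EPCAM is a member outside the adhesion list.

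The rule works by identifier, so it was asked whether a knockout peak under another identifier lay at the same place. None of the 319 members shared a base with a knockout peak on either strand, where a count of 0 allows a share of up to 0.940% by 3 counts, and up to 1.15% by the exact interval. Over all SiHa peaks, 0.340% shared a base with a same-strand knockout peak of another identifier and 0.379% with one on the opposite strand. In the other SiHa-only genes such overlaps were rarer. They were 1 (same strand) and 5 (opposite strand) of 3068 narrower single peaks. Where a SiHa-only gene had several peaks, they were 2 and 1 of 5289 peaks. The members' count of 0 is thus not particular to them. The nearest knockout peak on the same strand lay a median of 251245 bases away and within 10000 bases for 11 members. Absence by identifier was thus also absence by place for each of the 319. The reverse does not hold: with absence judged by same-strand block overlap instead, the count was 402. Genes with a knockout row can thus also lack a knockout peak at the place of their SiHa peak. The wide single peaks of genes with a knockout row, used for comparison above, were not divided by this.

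Within the SiHa list, by contrast, 51 members shared bases with a peak of another identifier. On the same strand these were 21 members (6.58%, 4.12 to 9.89%; 4.74% of all SiHa peaks). On the opposite strand they were 30 (9.40%, 6.44 to 13.2%; 6.39% of all SiHa peaks and 9.84% of narrower single peaks of SiHa-only genes). In 15 opposite-strand pairs that include a member, involving 18 members, at least 50% of both peaks was shared, and in 10 of the 15 the deposited p of both peaks agreed within a factor of 10. Over the whole list this held for 256 of 321 such pairs (79.8%). These counts include 1 and 8 pairs with both p listed at 0, whose likeness is not measured. FADD and the opposite identifier ENSG00000254721, both members, shared 595 bases, and both had a p of 1e-109. RGMB, a BMP co-receptor, and ENSG00000279232, again both members, shared 433 bases with a p of 6.3e-19 each. ERCC1 and ENSG00000117877 shared 1221 bases with a p of 0 each.

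PDIA6 (390 bases, 1e-191) shared 337 bases with ATP6V1C2 (359 bases, 1e-189), whose peak lay just outside the threshold. BDNF, the neurotrophin, had a peak of 841 bases and shared 116 of them with its antisense RNA BDNF-AS, and both peaks had a p of 1e-243. NTMT1 (6.3e-19) and ASB6 (1.6e-18) shared 357 bases. In other pairs the values differed: ARHGAP24 had 7.9e-15 where its opposite peak had 0.0016, and YAP1, a Hippo pathway coactivator, 1.6e-21 where its opposite peak had 0.0023. The kit marks strand per the labels, but whether the counting used strand is not stated. For pairs with near-equal p, signal from the genes of the 2 strands cannot be told apart, and where both peaks of a pair are members they count as 2 of the 319.

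**Figure D5:**
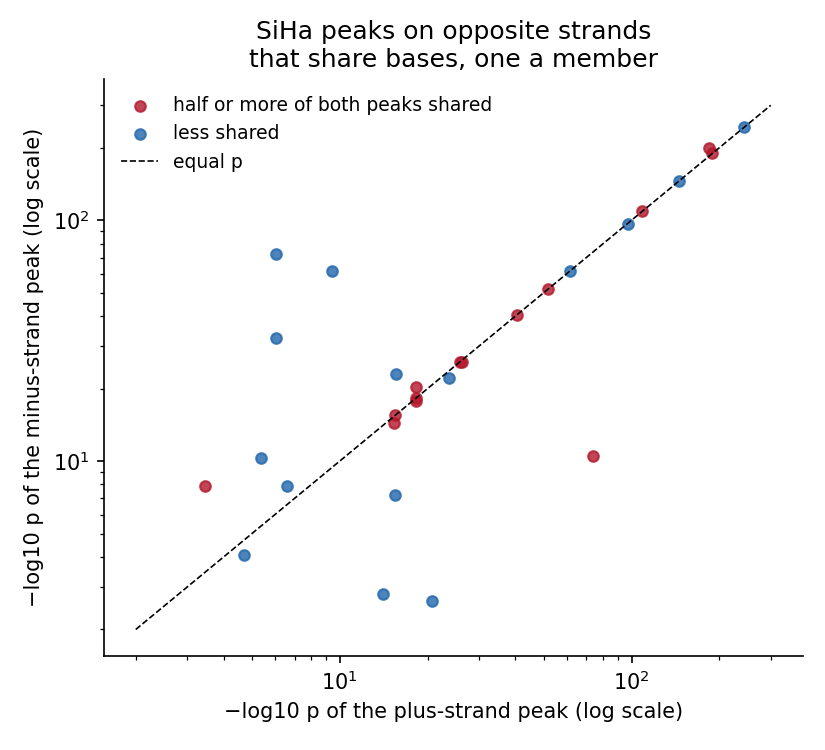
The 29 pairs of opposite-strand SiHa peaks that share bases, include a member and have no p at 0, plotted as −log10 p of the plus-strand peak (x axis) against that of the minus-strand peak (y axis), both on log scales. Red points share at least 50% of both peaks and blue points less, and the dashed line marks equal p; most red points lie on or near the line, and 2 further pairs with both p at 0 are not drawn.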

How the data were processed

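Immunoprecipitated and input RNA of SiHa and NAT10-knockout SiHa cells was sequenced from 2 replicates per group, and the authors deposited 1 peak list per population. Per the file headers, each peak has positions, blocks and a score; from its values the deposited score column is the authors' p-value. The knockout list also gives log10 p, log10 false discovery rate (the latter a deposited score used as an alternative filter) and the authors' fold enrichment, a ratio that was not used. Per the submitters' processing notes, FastQC 0.11.7 and GRCh38 were used; the aligner, peak caller, annotation and pooling of replicates were not given in the sources used here.

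From 12928 SiHa and 4559 knockout rows, 1 repeated line and 3 rows in each list off chromosomes 1 to 22, X and MT were dropped. Identifiers carry no gene names in the files. A name was given where exactly 1 RefSeq span (GRCh38.p14), on the peak's strand or of unlisted strand, held 90% of the bases. In addition, no other identifier did so, and no same-strand peak of another identifier shared 50% of the peak. This named 7332 of 9045 identifiers and 266 members; 24 members shared a span, 15 lay in several, 12 in none and 2 shared their peak. Unlike an earlier account of these data, strand was used where listed, which was for 27197 of 59135 spans.

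Members and gene lists were chosen with earlier results of these data known. Genes were named by rule: the 12 widest, the 10 smallest p (ties by width), 4 on each side of the threshold, up to 3 per list or family by width, the 5 with most blocks, mitochondrial genes and peaks covering a gene start; others are marked or serve as examples of strand pairs. The members of some families are not reported here. The functions for naming and overlap were tested on simulated peaks. Python 3.11.15, pandas 2.3.3, NumPy 2.4.6 and SciPy 1.17.1 were used. Exons and a genome were not used here.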

Additional observations from a re-analysis of the deposited data

How the results depend on the processing

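Of 45 recomputed values of the 6 main results, 38 stayed within the limits set for them and 7 moved. The limits were wide for the number of members, 319 in the main setting. Counts of 437 at 310 bases or more and 402 with absence judged by same-strand block overlap stayed within them. The share overlapped by a knockout peak was 0 in each setting, so its values could hardly move. The number of members was 169 with a threshold of 450 bases, 516 with only SiHa rows of −log10 p above 8, since a gene then more often keeps 1 row, and 1025 with width taken as genomic span, which counts gaps. The median of −log10 p was 66.2 at 450 bases and 50.7 with the stricter SiHa rows. The share ending near the gene's end was 12.4% within 200 bases and 31.2% within 1000 bases. Of 76 recomputed list counts, 72 stayed and 4 moved. Leaving out members that overlap other identifiers (268 left) or mitochondrial genes (313 left), and names from either strand, were alternatives chosen after seeing the data. No paired analysis was possible because each population has 1 pooled list with no values per replicate; for the same reason no replicate could be left out. Depth is unknown and limits every count.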
